A study of Mus musculus with 12 samples.

Results

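Livers of mice without FoxO1, FoxO3 and FoxO4 in hepatocytes (triple knockout, TKO) were compared with livers of littermate controls (WT), both collected after 4 h of refeeding. The members were chosen by their labels: the 3 arrays labelled as refed livers of the triple knockout and the 3 labelled as refed WT livers, 6 of the 12 arrays of the series. The other 6 arrays, from livers of the same genotypes after 22 h of fasting, were used only where stated. All mice were on a mixed C57BL/6J and 129 background, and the treatment notes call the cohorts littermates matched for age and sex, with no values of either given in the sources used here. The Cre driver and the floxed alleles were not given in the sources used here, so the WT group is described only as littermate control. Hepatocyte-specific deletion leaves the 3 genes intact in the other cells of the liver. Total liver RNA was labelled and hybridised to 1-colour arrays, and each array gave 1 log2 expression value for each of 23238 features. Of these, 14939 carried 1 gene symbol (14807 genes), 989 carried several and 7310 carried none in the platform annotation used here. No label states that every array came from its own animal, so p-values cover the spread among these arrays alone, part of which may be technical.

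FoxO proteins are forkhead transcription factors that insulin signalling, through Akt, moves out of the nucleus. In the fasted liver they are known as activators of genes of glucose production, of the insulin receptor pathway and of Igfbp1, and their removal from hepatocytes is known to lower glucose output and to raise lipid synthesis. Refeeding is known to raise insulin and so to bring FoxO activity down in WT liver as well. Insulin and FoxO activity were not given here, so whether FoxO activity was down in these refed WT livers was not tested. Igfbp1 measured 9.47, 8.37 and 7.84 in refed WT livers and 8.34, 8.86 and 8.84 in fasted ones. Igfbp2, another binding protein, measured 8.03, 8.84 and 8.01 in refed WT livers and 10.65, 10.55 and 10.86 in fasted ones. Refeeding is also known to place a load on the endoplasmic reticulum (ER), where secreted proteins are folded. It is known to switch fatty acid oxidation, a process run largely by the nuclear receptor PPARα, towards fatty acid synthesis.

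In refed TKO livers many chaperones of the ER and the cytosol measured higher, the fatty acid elongase Elovl6 was higher while other genes of fatty acid synthesis were mixed, and Rab30, Cirbp and many genes known as PPARα targets measured lower. Manf was 4.66 times as high in TKO livers as in WT livers, Stip1 2.56 times as high and Elovl6 3.82 times as high. Rab30 was 4.33 times as high in WT livers as in TKO livers, and Angptl4 3.69 times as high in WT. Manf, Stip1 and Rab30 passed the test in the fit to these 6 arrays, Elovl6 and Angptl4 only in a fit that took its spread from all 12 arrays (Angptl4 not without TKO replicate 1). With any 1 of the 6 refed arrays left out, the first fit called 0 features, so these 3 calls were not kept. The second fit then called from 1 to 691 features. Genes of glucose production (G6pc, Pck1) and the insulin receptor Insr passed neither fit. Differences are given throughout as TKO minus WT on the log2 scale, with 3 arrays per group.

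The targeted genes were examined first. Foxo1 measured 8.47, 8.35 and 8.91 in TKO livers and 9.04, 9.02 and 8.84 in WT livers. Its groups overlapped, since TKO replicate 3 lay above WT replicate 3, and the difference of -0.39 (SE 0.173) had an adjusted p of 0.429 in limma. Foxo3 measured 7.64, 7.94 and 7.77 in TKO livers and 7.89, 7.99 and 7.86 in WT livers, a difference of -0.13 (adjusted p = 0.737). Foxo4 measured 5.68, 6.39 and 6.78 in TKO livers and 6.20, 5.86 and 6.29 in WT livers, a difference of 0.16 (adjusted p = 0.882). None of the 3 features separated the genotypes over the 6 arrays. Without TKO replicate 1, which is described next, the Foxo4 difference was 0.47 with TKO higher and no overlap (adjusted p = 0.422), and that of Foxo3 was -0.06. A feature summarises probes whose positions relative to the deleted part of each gene were not given, and other liver cells still carry the genes, so these values did not check the deletion.

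The arrays differed in how close they lay to their group mates. TKO replicate 1, the only refed array whose title carries a suffix, departed from the mean of its mates with an SD of 0.527 over all features, against 0.421 and 0.359 for the other TKO arrays and 0.333 to 0.369 for the WT arrays. Its correlation with the other 5 arrays was 0.968 to 0.976. It held the lowest value of the 6 in 29.0% of features, against 10.6% to 19.6% for the other arrays. The highest value was its own in 20.9%, within the 12.0% to 21.7% of the other arrays. On the first principal component (39.8% of variance) it scored -63.4, against 11.7 and -11.96 for the other TKO arrays and 16.7 to 24.9 for the WT arrays. The second component (23.29%) placed the other TKO arrays at -24.9 and -36.5, TKO replicate 1 at 16.1 and the WT arrays at 1.19 to 30.4. The median SD per feature was 0.214 in TKO and 0.162 in WT. The labels give no reason for the suffix, and its part in the results was not tested; values without this array are given below for the lists, the main genes and the named genes whose difference moved by over 1.5 times or whose call changed. Signal over background was not given in the files, so the precision of dim values was unknown.

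**Figure D1:**
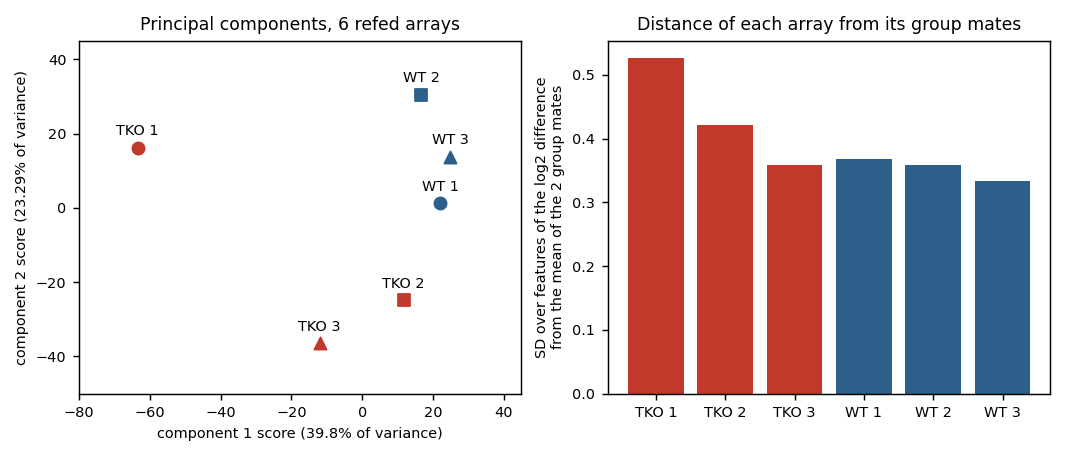
Left, the 6 refed arrays by their scores on the first (x axis) and second (y axis) principal component, TKO in red and WT in blue, with replicates 1, 2 and 3 as circle, square and triangle. Right, the SD over all features of each array's log2 difference from the mean of its group mates, as bars from 0; TKO replicate 1 stands apart in both, at -63.4 on the first component and with an SD of 0.527.

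Cell types were checked against marker genes. Hepatocyte markers (3 of 5 measured: Alb, Ttr and Tat) averaged 13.53 to 13.68 in TKO livers and 13.52 to 13.69 in WT livers on the log2 scale, so the labelled tissue showed its defining genes in every array. Kupffer cell markers (4 of 4) averaged 8.28 to 8.53 in TKO and 8.29 to 9.04 in WT, stellate cell markers (4 of 4) 9.06 to 9.51 in TKO and 8.90 to 9.51 in WT, and endothelial markers (4 of 4) 7.80 to 7.95 in TKO and 7.67 to 8.17 in WT. Cholangiocyte markers (3 of 4) averaged 5.24 to 5.98 in TKO and 5.66 to 5.89 in WT, lymphocyte markers (2 of 3) 5.95 to 6.09 in TKO and 6.05 to 6.46 in WT, and neutrophil markers (2 of 3) 3.70 to 3.85 in TKO and 3.70 to 5.38 in WT. The high neutrophil value belonged to WT replicate 1, in which S100a8 measured 5.08, against 3.00 to 3.28 in the other 5 refed arrays. The pancreas marker Cela1 (1 of 3) measured 6.32 to 6.49 in TKO and 6.11 to 6.51 in WT, fat markers (2 of 2) averaged 4.76 to 4.84 in TKO and 4.82 to 4.90 in WT, and kidney and gut markers (3 of 3) 5.98 to 6.44 in TKO and 5.90 to 6.12 in WT; of the blood markers 0 of 2 were measured. Of single markers, Cd5l, Pecam1 and Adipoq were lower and Lyve1 and Umod higher in every TKO liver. Among all features 12.1% were lower and 6.42% higher without overlap, so these few markers are not read as a shift in cell types. None of the marker genes passed the test in either fit. In bulk RNA, fewer cells of a type and less RNA per cell cannot be told apart.

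Across all features the differences were modest. The log2 difference had an SD of 0.347 and a median of -0.033, with a median size of 0.168 in either direction and a range from -2.89 to 2.64. In the fit to the 6 refed arrays (limma, Benjamini-Hochberg over all features, threshold 0.05), 4 features were called (0.0172%), of which 3 were higher in TKO (0.0129%) and 1 lower (0.0043%). An unadjusted p under 0.05 was found for 2849 features (12.3%), 907 higher (3.9%) and 1942 lower (8.36%). A second fit took its estimate of the spread from all 12 arrays, with 1 mean per group, and tested the same refed difference. It called 35 features (0.151%), 17 higher (0.0732%) and 18 lower (0.0775%), 3 of them shared with the first fit. Those 35 were named here after their values were seen. The count of this second fit ran from 1 (without WT replicate 2) to 691 (without TKO replicate 2) when 1 refed array was left out, and without TKO replicate 1 it called 31 features, 19 of the 35 among them. Calls of the second fit below are subject to that range.

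In 4296 features (18.5%) the TKO and WT arrays did not overlap, 1491 of them higher in TKO (6.42%) and 2805 lower (12.1%). The excess of lower features depended on level and on scaling. Of the 7746 brightest features 624 were higher and 1491 lower without overlap, with a median difference of -0.12, whereas the 7746 dimmest had 437 higher and 378 lower, with a median of 0.01. After cyclic loess scaling the split was 2103 higher and 2148 lower, and after median centring 1856 higher and 2407 lower. The cyclic loess split amounts to 9.05% and 9.24% of all features. Without TKO replicate 1, when only 5 arrays can overlap, 12.5% were higher and 18.4% lower. A difference of at least 2-fold without overlap was found for 123 features higher in TKO (0.529%) and 148 lower (0.637%). Among the 14939 features with 1 symbol, 5.98% were higher and 15.05% lower without overlap over the 6 arrays, at any size. Among the 7746 brightest features these shares were 8.06% and 19.2%.

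**Figure D2:**
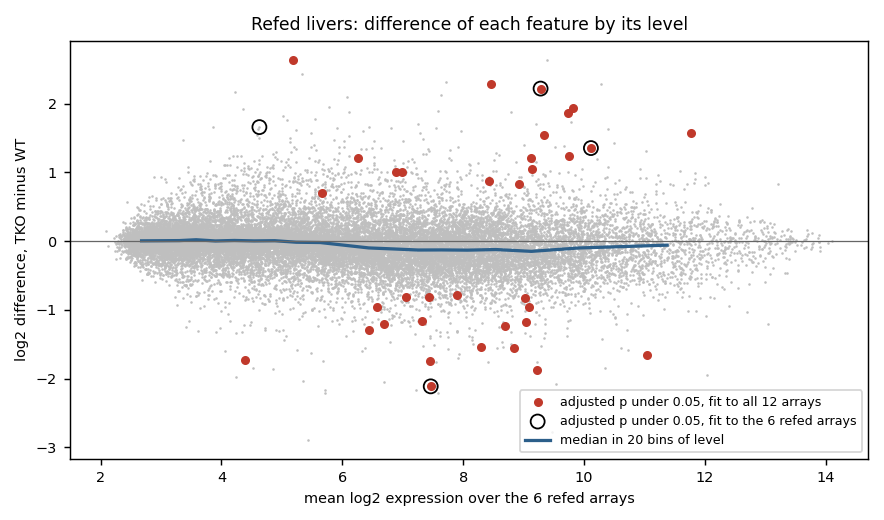
Log2 difference, TKO minus WT (y axis), of each feature against its mean log2 expression over the 6 refed arrays (x axis). Red points are the 35 features called in the fit to all 12 arrays, black circles the 4 called in the fit to the 6 refed arrays, and the blue line is the median in 20 bins of level, which dips below 0 for middle and bright features.

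Among the 4 features called in the fit to the 6 refed arrays, Manf had the largest difference. This gene encodes a protein of the ER lumen that is made in response to unfolded proteins and is also secreted. Manf measured 10.56, 10.24 and 10.37 in TKO livers and 8.35, 8.24 and 7.92 in WT livers. The groups lay about 2 log2 units apart and each was tight, and the gene rose by 2.22 (SE 0.157, adjusted p = 0.0336 in limma, 2.14 without TKO replicate 1). Stip1, the co-chaperone that bridges Hsp70 and Hsp90, measured 10.72, 10.85 and 10.80 in TKO livers and 9.37, 9.47 and 9.47 in WT livers. It rose by 1.35 (SE 0.105, adjusted p = 0.0429, 1.39 without TKO replicate 1), with no array of one group within 1 log2 unit of the other. Rab30, a small GTPase of the Golgi apparatus, measured 6.51, 6.48 and 6.23 in TKO livers and 8.33, 8.52 and 8.71 in WT livers. It fell by 2.11 (adjusted p = 0.0336, -2.16 without TKO replicate 1). The fourth, feature 5443662, had no gene symbol; it measured 5.35, 5.54 and 5.48 in TKO livers and 3.91, 3.76 and 3.73 in WT livers, a rise of 1.66 (adjusted p = 0.0336). With any 1 of the 6 arrays left out, the fit to the remaining 5 called 0 features in limma (1911 to 3761 with an unadjusted p under 0.05), so none of the 4 calls was kept there.

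**Figure D3:**
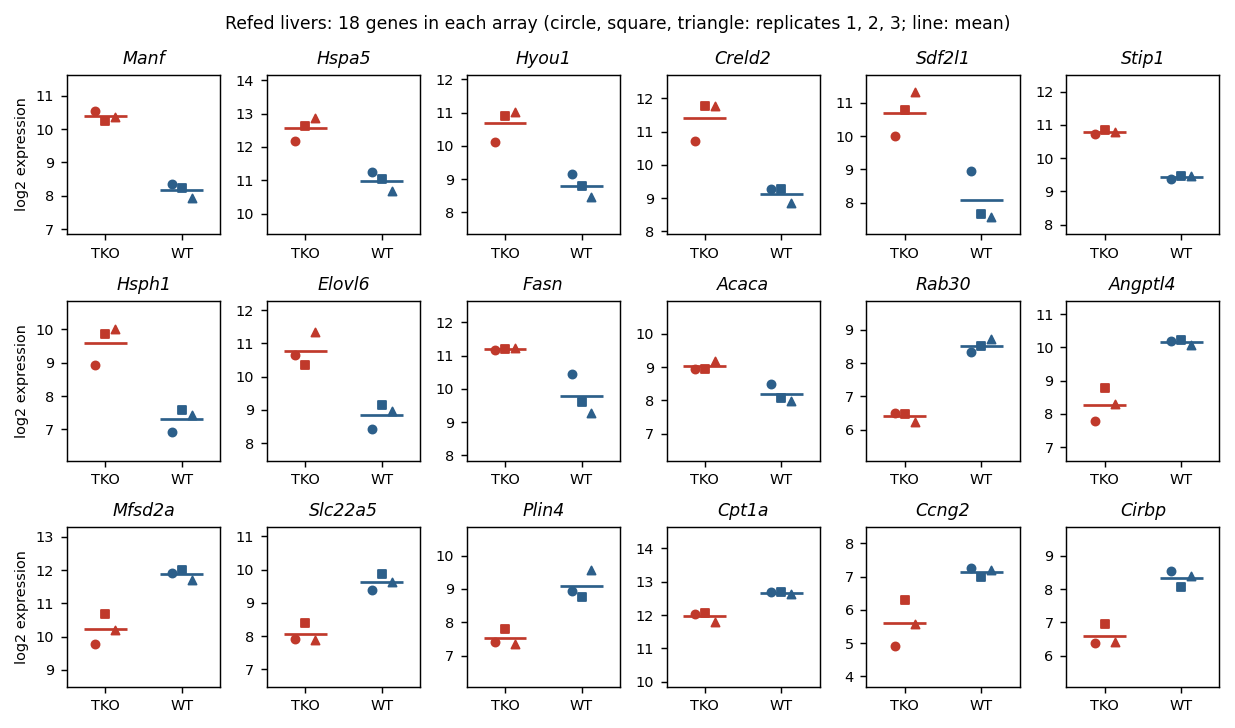
Log2 expression (y axis, each panel spanning the same range of log2 units around its own centre) of 18 genes in TKO (red) and WT (blue) refed livers. Circle, square and triangle are replicates 1, 2 and 3 and the line is the group mean; in each panel the TKO and WT arrays do not overlap, as for Manf at 10.24 to 10.56 in TKO and 7.92 to 8.35 in WT.

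Many genes of protein folding in the ER and of the disposal of misfolded proteins measured higher in TKO. When proteins fold poorly in the ER, the sensor Ern1 (IRE1α), the factor Atf6 and their targets raise the chaperones through a promoter element named the ER stress response element, searched here as CCAAT and CCACG with any 9 bases between them. The list was drawn up after values of these data were seen and is described without a test. Of its 29 genes 27 were measured (not Dnajc3 and Atf6); 18 were higher in every TKO liver than in any WT liver and 0 were lower (19 and 0 after cyclic loess), against 6.42% and 12.1% of all features (9.05% and 9.24% after cyclic loess). Without TKO replicate 1, 24 were higher without overlap and 0 lower, against 12.5% and 18.4%. Their median difference was 0.84 (0.90 without TKO replicate 1, 0.92 after cyclic loess), against -0.03 for all features. In the fit to the 6 refed arrays 1 was called (Manf) and 17 had an unadjusted p under 0.05, all higher; in the fit to all 12 arrays 5 were called, Manf, Hspa5, Hyou1, Ostc and Ern1. Without TKO replicate 1 that fit no longer called Ostc (adjusted p = 0.0522) and also called Creld2, Hspa13 and Sdf2l1 (adjusted p = 0.0451 each).

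The promoters of Hspa5, Creld2, Derl3 and Syvn1 are shown because they hold the element in genes with large differences; the windows run from 250 bases before to 50 after the start (RefSeq, GRCm38.p6), 5′ to 3′, with the matched element, on either strand, in capitals. The window of Hspa5 is chr2:34771840-34772139 (plus strand), that of Creld2 chr15:88819396-88819695 (plus strand), that of Derl3 chr10:75893148-75893447 (plus strand) and that of Syvn1 chr19:6046326-6046625 (plus strand).
Hspa5: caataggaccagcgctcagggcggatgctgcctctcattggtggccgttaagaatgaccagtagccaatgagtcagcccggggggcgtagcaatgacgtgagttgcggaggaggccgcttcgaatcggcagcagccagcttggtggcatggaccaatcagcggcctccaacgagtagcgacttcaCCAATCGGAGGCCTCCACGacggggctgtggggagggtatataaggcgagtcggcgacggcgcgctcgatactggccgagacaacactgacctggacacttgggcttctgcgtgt
Creld2: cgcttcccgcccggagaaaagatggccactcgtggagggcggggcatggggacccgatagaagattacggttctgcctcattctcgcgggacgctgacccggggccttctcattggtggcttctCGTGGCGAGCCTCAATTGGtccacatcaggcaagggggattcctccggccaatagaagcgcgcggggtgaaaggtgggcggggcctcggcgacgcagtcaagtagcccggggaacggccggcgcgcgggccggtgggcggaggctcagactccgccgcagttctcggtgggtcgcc
Derl3: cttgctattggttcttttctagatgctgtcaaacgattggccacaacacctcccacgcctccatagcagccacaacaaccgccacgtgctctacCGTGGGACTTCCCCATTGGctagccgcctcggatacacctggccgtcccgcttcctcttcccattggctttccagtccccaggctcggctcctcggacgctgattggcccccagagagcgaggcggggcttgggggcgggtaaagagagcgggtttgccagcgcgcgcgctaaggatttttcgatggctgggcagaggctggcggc
Syvn1: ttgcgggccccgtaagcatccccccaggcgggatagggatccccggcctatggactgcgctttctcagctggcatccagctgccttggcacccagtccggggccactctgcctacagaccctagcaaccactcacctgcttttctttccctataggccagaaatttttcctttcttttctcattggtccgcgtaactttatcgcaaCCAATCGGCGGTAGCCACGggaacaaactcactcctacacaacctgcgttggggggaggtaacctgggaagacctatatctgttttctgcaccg

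Of the 22 list genes with a window, 8 held the element on either strand (36.4%): these 4, Calr, Canx, Hsp90b1 (2 matches) and Pdia6. Among all 27025 genes with a window it occurred in 37 (0.137%), among genes with a window that were higher without overlap in 6 of 725 (0.828%) and among genes lower without overlap in 1 of 1805 (0.0554%). Hspa5, Creld2, Derl3, Syvn1 and Hsp90b1, all from the list, are among those 6 higher genes, so the shares are not independent. The list was drawn up after values were seen and holds chaperones known to be raised through this element, so its share was not a test. A match describes letters in a window and does not show that a factor binds there.

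The chaperones of the list reached high levels. Hspa5 (BiP), the ER chaperone that binds nascent and misfolded chains, measured 12.17, 12.63 and 12.87 in TKO livers and 11.24, 11.05 and 10.68 in WT livers. Every TKO array lay above every WT array, with TKO replicate 1 the lowest of its group; the difference was 1.57 (SE 0.228, 1.76 without TKO replicate 1; adjusted p = 0.141 in the fit to the 6 refed arrays and 0.0326 in the fit to all 12). Hyou1, a large chaperone of the Hsp70 family that works with Hspa5, measured 10.11, 10.89 and 11.02 in TKO livers and 9.17, 8.79 and 8.46 in WT livers. Its difference was 1.87 (2.15 without TKO replicate 1; adjusted p = 0.153 and 0.0453 in the same fits). Hsp90b1 (Grp94), the Hsp90 of the ER, measured 12.41, 12.45 and 12.53 in TKO livers and 11.89, 11.66 and 11.32 in WT livers, a difference of 0.84 that passed neither fit (adjusted p = 0.207 and 0.087). The Hsp70 relative Hspa13 (1.28), the Hsp40 proteins Dnajb9 (0.99) and Dnajb11 (0.93) and the disulfide isomerases Pdia3 (0.90) and Pdia4 (0.84) also separated the groups without being called.

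The largest differences of the list lay in smaller ER proteins and in the degradation machinery. Sdf2l1, an ER protein that works with Hspa5, measured 10.01, 10.78 and 11.33 in TKO livers and 8.96, 7.67 and 7.57 in WT livers. WT replicate 1 lay more than 1 log2 unit above its mates, and the difference of 2.64 (SE 0.474, 2.98 without TKO replicate 1) had adjusted p-values of 0.188 and 0.0517. Creld2, an ER protein made under folding stress, measured 10.71, 11.78 and 11.75 in TKO livers and 9.27, 9.27 and 8.84 in WT livers. Derl3, of the channel that carries misfolded proteins out of the ER, measured 8.38, 9.39 and 8.86 in TKO livers and 6.66, 6.40 and 6.62 in WT livers. Creld2 (2.29) and Derl3 (2.32) had gaps of more than 1 log2 unit between the groups, yet neither passed (adjusted p = 0.141 and 0.12 in the fit to the 6 refed arrays). Syvn1 (Hrd1), the ubiquitin ligase of that channel, differed by 1.71 (adjusted p = 0.149). Ostc, a subunit of the enzyme that attaches sugars to nascent proteins, differed by 1.24 and rose in the fit to all 12 arrays (adjusted p = 0.0292).

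The sensor Ern1 and the factor Xbp1 showed smaller differences than Hspa5. Ern1 measured 9.74, 9.55 and 9.69 in TKO livers and 8.63, 8.68 and 8.51 in WT livers. Both groups were tight; the difference of 1.05 (SE 0.114) was called in the fit to all 12 arrays (adjusted p = 0.00914) and not in the fit to the 6 refed arrays (adjusted p = 0.118). Xbp1, whose RNA Ern1 splices, measured 11.67, 11.95 and 12.24 in TKO livers and 11.51, 11.36 and 11.30 in WT livers, a difference of 0.56 (adjusted p = 0.299); a summary of the gene does not tell spliced from unspliced RNA. Some members lay near 0, among them Herpud1 (-0.03, 0.18 without TKO replicate 1), Ppib (-0.10, 0.23 without it) and P4hb (0.03, 0.16 without it). Of the arm run by Atf4, in which the translation factor eIF2α is phosphorylated, Ddit3 measured 7.54, 7.63 and 7.99 in TKO livers and 6.77, 6.70 and 6.75 in WT livers (0.98, adjusted p = 0.143). Atf4 itself differed by 0.46 (adjusted p = 0.323).

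Known targets of Atf4 were mixed. Of 13 such genes, listed after values were seen, 12 were measured (not Phgdh). Without overlap 2 were higher and 5 lower, beside 6.42% and 12.1% of all features. The counts were the same after cyclic loess, beside 9.05% and 9.24%. In either fit 0 were called, and the median was -0.30 (-0.28 without TKO replicate 1). Asns, asparagine synthetase, measured 6.38, 7.40 and 5.63 in TKO livers and 9.87, 8.39 and 7.80 in WT livers. Its groups stood apart, but both were wide (SD 0.887 and 1.07), and the difference of -2.22 had an adjusted p of 0.284. Ddit4 (-0.88), Trib3 (-0.50), Sesn2 (-0.43) and Slc7a11 (-0.26) were also lower without overlap. The Slc7a11 feature was dim, at 3.39, 3.35 and 3.38 in TKO livers and 3.58, 3.78 and 3.55 in WT livers.

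Many chaperones of the cytosol measured higher as well. Their best known regulator, heat shock factor 1, binds arrays of the letters GAA in alternating direction, searched here as GAA, TTC and GAA with any 2 bases between each. Of 18 genes listed after values were seen, 12 were measured (not Hspa1b, Hspa8, Hsp90ab1, Hspb1, Hspe1 and Hspd1). Of these, 9 were higher without overlap and 0 lower, against 6.42% and 12.1% of all features. After cyclic loess 10 were higher and 0 lower, against 9.05% and 9.24%. Without TKO replicate 1, 11 were higher and 0 lower without overlap, against 12.5% and 18.4%. The median was 0.82 (0.98 without TKO replicate 1, 0.93 after cyclic loess). Stip1 was called in the fit to the 6 refed arrays, and Hsph1, Chordc1 and Stip1 in the fit to all 12. Hsph1 (Hsp110), which recharges Hsp70, measured 8.92, 9.86 and 10.01 in TKO livers and 6.92, 7.59 and 7.42 in WT livers. Replicate 1 was the lowest of both groups; the difference was 2.29 (SE 0.325, 2.62 without TKO replicate 1; adjusted p = 0.141 and 0.0412). Chordc1, a co-chaperone of Hsp90, measured 9.87, 9.999 and 10.46 in TKO livers and 8.29, 8.84 and 8.54 in WT livers, a difference of 1.55 (adjusted p = 0.141 and 0.0312). Bag3 (1.15), which links Hsp70 to autophagy, and Dnajb1 (0.94), an Hsp40, separated the groups without being called. Hsp90aa1 (-0.46) and Hspa4 (0.08, 0.25 without TKO replicate 1) overlapped. The Hsp90aa1 feature was dim, at 3.98, 4.55 and 4.07 in TKO livers and 4.17, 5.10 and 4.70 in WT livers. Hspa1a, counted as higher, was dim too, at 4.18, 4.26 and 4.34 in TKO livers and 3.65, 3.74 and 3.81 in WT livers. The precision of such values was unknown.

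The promoters of Hsph1, at chr5:149636266-149636565 (minus strand), and Chordc1, at chr9:18292017-18292316 (plus strand), are shown because they held the heat shock element (RefSeq, GRCm38.p6, same window, matched bases in capitals; in Chordc1 the 3 matches overlap).
Hsph1: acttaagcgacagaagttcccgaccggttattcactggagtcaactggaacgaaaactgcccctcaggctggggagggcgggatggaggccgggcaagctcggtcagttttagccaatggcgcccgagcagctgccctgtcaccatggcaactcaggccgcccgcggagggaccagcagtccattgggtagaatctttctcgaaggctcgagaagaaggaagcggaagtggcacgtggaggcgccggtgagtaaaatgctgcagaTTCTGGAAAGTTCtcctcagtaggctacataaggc
Chordc1: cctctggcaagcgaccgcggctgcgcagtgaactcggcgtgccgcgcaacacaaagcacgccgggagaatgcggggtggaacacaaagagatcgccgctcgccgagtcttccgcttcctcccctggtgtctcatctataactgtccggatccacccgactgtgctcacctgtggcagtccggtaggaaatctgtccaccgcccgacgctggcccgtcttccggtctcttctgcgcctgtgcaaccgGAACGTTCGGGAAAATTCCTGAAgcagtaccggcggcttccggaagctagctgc

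They were 2 of the 11 listed chaperones with a window (18.2%), beside 179 of all 27025 genes (0.662%), 6 of 725 genes higher without overlap (0.828%) and 6 of 1805 lower (0.332%). Hsph1 and Chordc1 are themselves among the 6 higher genes, so that share is not independent of the list.

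Genes of fatty acid synthesis were mixed, with Elovl6 the only one called in either fit. Of 11 genes 10 were measured (not Me1); Elovl6, Fasn, Acaca and Acly were higher without overlap (4 of 10, beside 6.42% of all features) and Acacb lower (1 of 10, beside 12.1%; the same 4 and 1 in number after cyclic loess), and 4 of the 10 had a lower mean. The median was 0.31 (0.19 without TKO replicate 1, 0.42 after cyclic loess). Elovl6, which lengthens palmitate to stearate, measured 10.65, 10.36 and 11.33 in TKO livers and 8.43, 9.15 and 8.97 in WT livers. The lowest TKO liver lay more than 1 log2 unit above the highest WT liver, and the difference of 1.93 (SE 0.299, 1.998 without TKO replicate 1) was called in the fit to all 12 arrays (adjusted p = 0.0238) and not in the fit to the 6 refed arrays (0.149). Fasn, fatty acid synthase, measured 11.17, 11.21 and 11.23 in TKO livers and 10.45, 9.60 and 9.26 in WT livers. The TKO values were nearly equal while WT values spread over more than 1 log2 unit; the difference was 1.43 (adjusted p = 0.221 and 0.0839). Acaca, the cytosolic acetyl-CoA carboxylase, measured 8.93, 8.95 and 9.20 in TKO livers and 8.48, 8.07 and 7.996 in WT livers (0.84, adjusted p = 0.208). Acly, which makes cytosolic acetyl-CoA, differed by 0.76 (adjusted p = 0.305).

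Acacb was lower: this carboxylase of the mitochondrial surface, whose product holds back fatty acid oxidation, measured 7.07, 6.92 and 7.13 in TKO livers and 7.90, 7.66 and 7.86 in WT livers. The groups were tight and apart, with a difference of -0.77 (adjusted p = 0.167). The regulators did not separate the groups: Srebf1 measured 8.88, 9.25 and 8.69 in TKO livers and 9.16, 9.54 and 9.15 in WT livers (-0.34, adjusted p = 0.522), and Mlxipl (ChREBP) differed by 0.32. Scd1, the desaturase, measured 13.48, 13.08 and 12.80 in TKO livers and 13.36, 13.66 and 13.74 in WT livers (-0.47, adjusted p = 0.427; -0.65 and no overlap without TKO replicate 1). Thrsp (0.31, 0.08 without TKO replicate 1) and Gpam (-0.28) overlapped too.

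Genes of sterol synthesis showed a wide WT group. Of 21 genes, listed after values were seen, 17 were analysed here; 15 had a higher mean in TKO, 2 were higher without overlap (Cyp51 and Sc5d; 11.8%, beside 6.42% of all features, or 3 beside 9.05% after cyclic loess), 0 were called in either fit, and the median was 0.64 (0.72 without TKO replicate 1, when 6 were higher without overlap, beside 12.5%). Sqle, squalene epoxidase, measured 10.37, 10.72 and 10.85 in TKO livers and 10.68, 8.74 and 7.33 in WT livers. WT replicate 1 lay among the TKO values and the other WT livers below them, and the difference of 1.73 had an adjusted p of 0.44 (1.87 and no overlap without TKO replicate 1, adjusted p = 0.486). Cyp51, the demethylase of lanosterol, measured 10.19, 10.47 and 10.41 in TKO livers and 10.11, 8.88 and 7.93 in WT livers (1.38, adjusted p = 0.364), with the same order among WT replicates. WT replicate 1 is also the array with the high neutrophil markers given above, whose part in these values was not tested. Mvd, of the mevalonate pathway, had that order too, at 8.09, 8.65 and 8.38 in TKO livers and 8.18, 6.82 and 6.48 in WT livers, and likewise had no overlap without TKO replicate 1.

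Many genes known as targets of PPARα, the receptor that turns on fatty acid oxidation, measured lower in TKO. Of 25 genes, listed after values were seen, 19 were analysed here; all 19 had a lower mean in TKO, 14 were lower without overlap (73.7%) and 0 higher, against 12.1% lower among all features and 19.2% among the 7746 brightest (14 again after cyclic loess, against 9.24% of all features). The median was -1.10 (-1.17 without TKO replicate 1, when 18 were lower without overlap, against 18.4% of all features; -1.02 after cyclic loess). None was called in the fit to the 6 refed arrays, with 14 at an unadjusted p under 0.05, and Angptl4, Mfsd2a and Slc22a5 were called in the fit to all 12. Without TKO replicate 1 that fit kept Mfsd2a (adjusted p = 0.0451), called Pdk4 (-1.63, adjusted p = 0.0451) and did not call Angptl4 (adjusted p = 0.0988) or Slc22a5 (adjusted p = 0.118). Angptl4, a secreted inhibitor of lipoprotein lipase, measured 7.78, 8.77 and 8.30 in TKO livers and 10.20, 10.22 and 10.09 in WT livers. The WT values were within 0.2 of each other and TKO replicate 1 was the lowest; the difference was -1.88 (SE 0.246, -1.63 without TKO replicate 1; adjusted p = 0.141 and 0.0412). Mfsd2a, a transporter of lysophosphatidylcholine, measured 9.78, 10.67 and 10.19 in TKO livers and 11.91, 12.01 and 11.70 in WT livers (-1.66, adjusted p = 0.141 and 0.0244).

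Slc22a5, the carnitine transporter, measured 7.91, 8.39 and 7.90 in TKO livers and 9.39, 9.86 and 9.61 in WT livers, with 1 log2 unit of clear space between the groups. The difference was -1.56 (-1.48 without TKO replicate 1; adjusted p = 0.137 and 0.0422). Of the proteins of lipid droplets, Plin4 measured 7.40, 7.79 and 7.35 in TKO livers and 8.94, 8.76 and 9.57 in WT livers, and Plin2 measured 11.61, 11.68 and 11.09 in TKO livers and 12.30, 12.71 and 12.67 in WT livers. Both separated the groups without being called (Plin4 -1.58, adjusted p = 0.149; Plin2 -1.10, adjusted p = 0.196), and Plin5 differed by -1.03. Cidec, another droplet protein, spread over more than 2 log2 units in both groups and overlapped (not without TKO replicate 1, adjusted p = 0.361). The acyl-CoA thioesterases Acot3 (-1.75), Acot2 (-1.58) and Acot4 (-1.04), the carnitine-acylcarnitine carrier Slc25a20 (-1.12) and the peroxisomal enzyme Ehhadh (-1.02) were lower without overlap. Fabp1 (-0.07, -0.20 without TKO replicate 1) and Cyp4a14 (-0.06, -0.11 without it) were the members nearest to 0.

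Ppara itself was among the genes of fatty acid oxidation and ketogenesis, 6 of 7 analysed here, of which 4 were lower without overlap (beside 12.1% of all features; 4 beside 9.24% after cyclic loess), 0 were called in either fit and the median was -0.75 (-0.71 without TKO replicate 1). Ppara measured 11.08, 11.58 and 11.33 in TKO livers and 11.85, 12.28 and 12.28 in WT livers (-0.80, adjusted p = 0.242). Cpt1a, the entry step of mitochondrial oxidation, measured 12.05, 12.06 and 11.80 in TKO livers and 12.69, 12.69 and 12.62 in WT livers. The WT livers were almost equal and every TKO liver lay below them, yet the difference of -0.70 did not pass (adjusted p = 0.181). Ehhadh, shared with the list above, and the hormone Fgf21 (-0.28) were the other members without overlap; Acadm (-0.42, -0.25 without TKO replicate 1) overlapped. Pdk4 (-1.19) overlapped through TKO replicate 1 alone and is given without it above.

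The lists of gluconeogenesis, of the insulin and IGF axis and of autophagy hold classical FoxO targets. Beside their counts, 15.05% of features with 1 symbol and 19.2% of the 7746 brightest features were lower without overlap. With so few genes per list, shares near these are not read as a result. Of the 8 genes of gluconeogenesis, all measured, Pcx (-0.61, -0.33 without TKO replicate 1) and Got1 (-0.83) were lower without overlap (25%, beside 12.1% of all features; 2 beside 9.24% after cyclic loess), 0 were called in either fit and the median was -0.38 (-0.17 without TKO replicate 1). G6pc, glucose-6-phosphatase, measured 11.35, 12.14 and 12.44 in TKO livers and 12.00, 11.45 and 12.38 in WT livers (0.04, SE 0.346, adjusted p = 0.982; 0.35 without TKO replicate 1). Pck1, which makes phosphoenolpyruvate, measured 11.05, 12.71 and 12.02 in TKO livers and 13.04, 12.89 and 12.70 in WT livers. It was low in TKO replicate 1, and its difference of -0.95 was -0.51 without that array (adjusted p = 0.412 with it). Ppargc1a, a coactivator of these genes, measured 8.36, 7.50 and 7.34 in TKO livers and 8.60, 8.28 and 8.69 in WT livers (-0.79, adjusted p = 0.357; -1.11 and no overlap without TKO replicate 1, adjusted p = 0.171). Of 8 genes of glucose use, Pfkl (-0.30, -0.10 without TKO replicate 1), Pklr (-0.01, 0.40 without it) and Slc2a2 were analysed here; 0 separated the groups and the median was -0.06 (0.01 after cyclic loess).

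In the insulin and IGF axis, 6 of 8 genes were measured (not Irs2 and Akt2), 2 were lower without overlap (Insr and Trib3; 33.3%, beside 12.1% of all features, and 2 beside 9.24% after cyclic loess), 0 were called in either fit and the median was -0.41 (-0.24 without TKO replicate 1). Igfbp1, a secreted binding protein that insulin turns off, measured 6.07, 8.60 and 7.08 in TKO livers and 9.47, 8.37 and 7.84 in WT livers. Its values spread over 2.5 log2 units in TKO and overlapped with WT, and the difference of -1.31 was -0.72 without TKO replicate 1 (adjusted p = 0.504 with it). Insr, the insulin receptor, measured 9.36, 9.56 and 9.49 in TKO livers and 10.09, 10.03 and 9.84 in WT livers (-0.51, adjusted p = 0.244). Of 11 genes of autophagy and other FoxO targets, all measured, Ccng2 and Map1lc3b were lower and Sod2 (0.24) higher without overlap (18.2% and 9.09%, beside 12.1% and 6.42% of all features, with the same counts after cyclic loess), 0 were called in either fit and the median was -0.19. Ccng2, a cyclin tied to cell cycle arrest, measured 4.92, 6.29 and 5.58 in TKO livers and 7.26, 6.99 and 7.19 in WT livers (-1.55, -1.21 without TKO replicate 1, adjusted p = 0.229). Map1lc3b, the LC3 protein of autophagosomes, measured 9.94, 10.10 and 10.04 in TKO livers and 10.84, 10.64 and 10.80 in WT livers (-0.74, adjusted p = 0.149 and 0.0517). Its groups were tight and apart by 0.5 log2 units.

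Forkhead sites were searched as the insulin response element CAAAACAA and the FoxO binding element GTAAACA on both strands. Igfbp1, at chr11:7197537-7197836 (plus strand), and Ccng2, at chr5:93267323-93267622 (plus strand), are shown as known FoxO targets that held the first (RefSeq, GRCm38.p6, same window, matched bases in capitals).
Igfbp1: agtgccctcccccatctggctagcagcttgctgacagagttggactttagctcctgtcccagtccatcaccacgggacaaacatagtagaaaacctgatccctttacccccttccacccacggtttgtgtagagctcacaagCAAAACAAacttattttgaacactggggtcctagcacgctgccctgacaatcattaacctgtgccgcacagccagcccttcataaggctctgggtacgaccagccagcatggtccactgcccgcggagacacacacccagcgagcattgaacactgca
Ccng2: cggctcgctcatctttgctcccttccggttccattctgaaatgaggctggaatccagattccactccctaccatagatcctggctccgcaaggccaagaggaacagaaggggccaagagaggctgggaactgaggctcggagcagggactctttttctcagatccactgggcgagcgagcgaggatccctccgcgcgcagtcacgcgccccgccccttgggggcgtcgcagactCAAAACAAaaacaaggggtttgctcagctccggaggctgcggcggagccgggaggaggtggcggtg

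The insulin response element was in 779 of the 27025 windows (2.88%), in 12 of 725 genes higher without overlap (1.66%) and in 40 of 1805 genes lower without overlap (2.22%). Irs1 and Ern1 were the other listed genes that held it. The FoxO binding element was in 1095 windows (4.05%), in 25 of the higher genes (3.45%) and in 70 of the lower genes (3.88%); Elovl6, Sesn1, Cry1 and Slc7a11 held it. For these exact letters, both elements were thus no more frequent in either set than in all windows. Sites outside the windows or with other letters were not searched, so FoxO control of these genes was not tested.

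Of the 9 genes of cholesterol and lipoproteins 5 were analysed here, with Angptl4 and Pltp (-0.96) lower without overlap (40%, beside 12.1% of all features; 1 beside 9.24% after cyclic loess). Sqle is given above, and Mttp (-0.29, -0.10 without TKO replicate 1) and Apoc3 (-0.02, -0.24 without it) overlapped. All 6 genes of bile acid synthesis and transport were measured and 0 separated the groups, with a median of 0.12 (0.11 without TKO replicate 1). Without that array 2 were higher without overlap, beside 12.5% of all features. Cyp7a1, the rate-limiting enzyme, measured 11.50, 11.47 and 11.80 in TKO livers and 11.64, 11.55 and 11.10 in WT livers (0.16, adjusted p = 0.784). Cyp8b1, the 12α-hydroxylase, measured 7.55, 9.07 and 9.67 in TKO livers and 8.77, 8.48 and 7.57 in WT livers (0.49, adjusted p = 0.797). Both enzymes overlapped over the 6 arrays, and without TKO replicate 1 Cyp8b1 differed by 1.10 with no overlap (adjusted p = 0.367).

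Cirbp, an RNA-binding protein induced by cold, measured 6.38, 6.95 and 6.41 in TKO livers and 8.55, 8.05 and 8.38 in WT livers. The highest TKO liver lay more than 1 log2 unit below the lowest WT liver; the difference of -1.75 (-1.65 without TKO replicate 1) was called in the fit to all 12 arrays (adjusted p = 0.0412) and not in the fit to the 6 refed arrays (0.136), nor in the fit to all 12 without TKO replicate 1 (0.116). It was listed with clock genes, after values were seen: of 18 genes 13 were measured (not Per2, Cry2, Nr1d1, Ciart and Rbm3), 4 were lower and 0 higher without overlap, beside 12.1% and 6.42% of all features (3 lower and 1 higher after cyclic loess, beside 9.24% and 9.05%), and the median was -0.26. Besides Cirbp the 4 lower genes were Hlf (-0.51), Bhlhe41 (-0.50) and Per1 (-0.40, -0.24 without TKO replicate 1). Of the 13, 5 had a higher mean in TKO, the largest being Cry1 (0.91) and Arntl (0.63), which overlapped. Without TKO replicate 1, Cry1 differed by 1.12 and Arntl by 0.92, each with no overlap. Dbp, a clock output factor, measured 9.77, 9.87 and 9.15 in TKO livers and 9.82, 11.05 and 10.86 in WT livers, and overlapped through WT replicate 1.

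**Figure D4:**
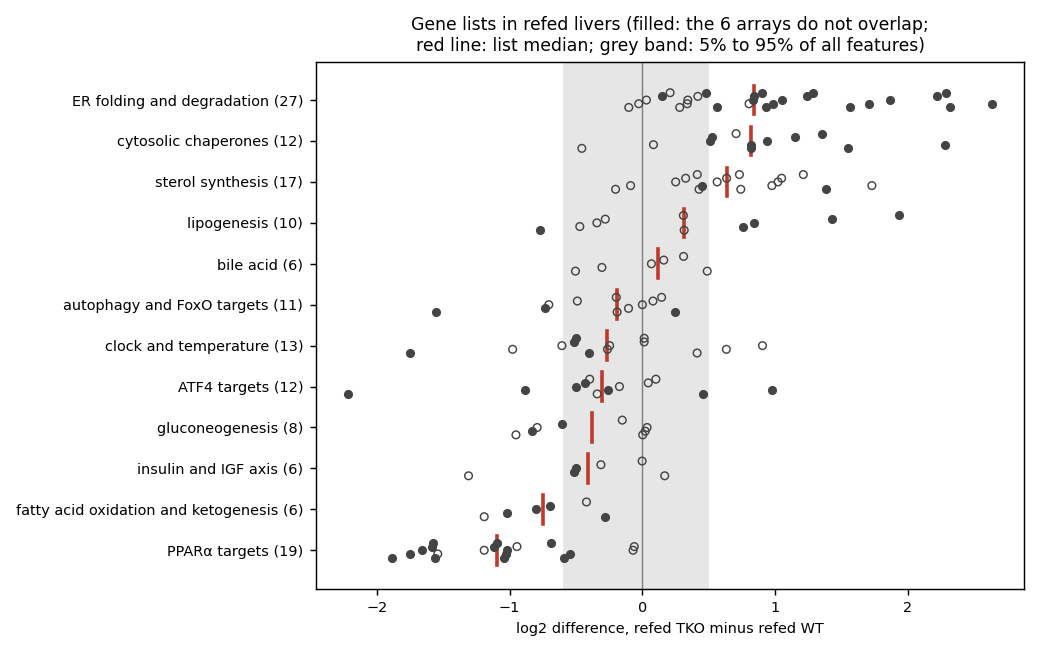
Log2 difference, TKO minus WT in refed livers (x axis), of each measured gene in 12 of the lists (y axis, with the number of genes measured). Filled points are genes whose 6 arrays do not overlap between genotypes, red lines are list medians (0.84 for ER folding and degradation, -1.10 for PPARα targets) and the grey band holds all features but the most extreme 1 in 20 on each side, from -0.59 to 0.50.

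The rest of the genes called in the fit to all 12 arrays belonged to none of these lists; their adjusted p-values in that fit were 0.00871 to 0.0453 (limma). Without TKO replicate 1 it no longer called Cstf3, Top1, Sap30, Calcoco1, Elmod3, Bag4, Fam214b, Glb1 and Zkscan17 (adjusted p = 0.0533 to 0.118). Slc39a10, a zinc importer, measured 7.11, 6.81 and 6.68 in TKO livers and 5.45, 5.64 and 5.87 in WT livers (1.22). Cdk2ap2, a small protein named for binding the kinase Cdk2, measured 9.79, 9.67 and 9.73 in TKO livers and 8.49, 8.60 and 8.48 in WT livers (1.21), with adjusted p = 0.0736 in the fit to the 6 refed arrays. Smaller rises were those of the RNA 3′ end factor Cstf3 (1.00), topoisomerase Top1 (0.87) and Sap30 (0.70), a subunit of a histone deacetylase complex. The largest rise among the 35 was that of a feature shared by several gene symbols, which measured 7.17, 6.28 and 6.08 in TKO livers and 4.04, 3.99 and 3.58 in WT livers (2.64) and cannot be given to 1 gene.

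Among the falls, Tedc2, a centriole protein, measured 7.33, 7.78 and 7.44 in TKO livers and 8.95, 9.005 and 9.23 in WT livers (-1.54). Sec22c, of vesicle traffic between ER and Golgi, measured 6.76, 6.81 and 6.63 in TKO livers and 7.98, 7.86 and 7.84 in WT livers (-1.16), and Calcoco1, known as a coactivator and as a receptor for autophagy, differed by -1.18. The arrays of each group lay within 0.2 log2 units of each other for Sec22c. Bnc2 (-1.29), Elmod3 (-1.23), Cpeb2 (-0.97), the chaperone regulator Bag4 (-0.83), Fam214b (-0.82), the lysosomal enzyme Glb1 (-0.81) and Zkscan17 (-0.78) made up the rest of the named falls. Another 5 called features had several symbols or none and are not described.

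The same genotype comparison in fasted livers, which shares no array with the refed one, gave other values for some lists. There 2529 features were higher in TKO without overlap (10.9%) and 1733 lower (7.46%). The ER list had 24 of 27 genes higher without overlap and a median of 0.92, beside 18 and 0.84 in refed livers, and cytosolic chaperones had 10 of 12 and 0.95, beside 9 and 0.82. Manf measured 10.61, 9.98 and 10.92 in fasted TKO livers and 8.10, 8.46 and 8.04 in fasted WT livers, a difference of 2.30 beside 2.22 refed. Sdf2l1 differed by 3.73 fasted, beside 2.64 refed. Rab30 differed by -1.40 fasted, beside -2.11 refed, and Angptl4 by -1.70, beside -1.88.

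Lists of lipid metabolism gave larger values in refed than in fasted livers. PPARα targets had a median of -0.23 fasted (6 of 19 lower without overlap), beside -1.10 refed (14 of 19); fatty acid oxidation and ketogenesis had -0.34 beside -0.75, sterol synthesis 0.13 beside 0.64 and lipogenesis 0.14 beside 0.31. Plin4 differed by -0.30 fasted, beside -1.58 refed. Its WT livers measured 6.90, 7.67 and 6.52 fasted and 8.94, 8.76 and 9.57 refed. Its TKO livers measured 6.43, 6.63 and 7.12 fasted and 7.40, 7.79 and 7.35 refed. Ehhadh differed by 0.15 fasted, beside -1.02 refed. Igfbp1 went the other way, with a difference of -2.01 fasted, beside -1.31 refed, as did G6pc at -0.86 fasted, beside 0.04 refed. The difference between the refed and fasted comparisons was tested for every feature as the interaction of genotype and feeding in the fit to all 12 arrays (limma), which called 0 features (lowest adjusted p = 0.924; 1133 features had an unadjusted p under 0.05). The values are therefore given side by side, and none of these contrasts was shown to differ between feeding states.

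**Figure D5:**
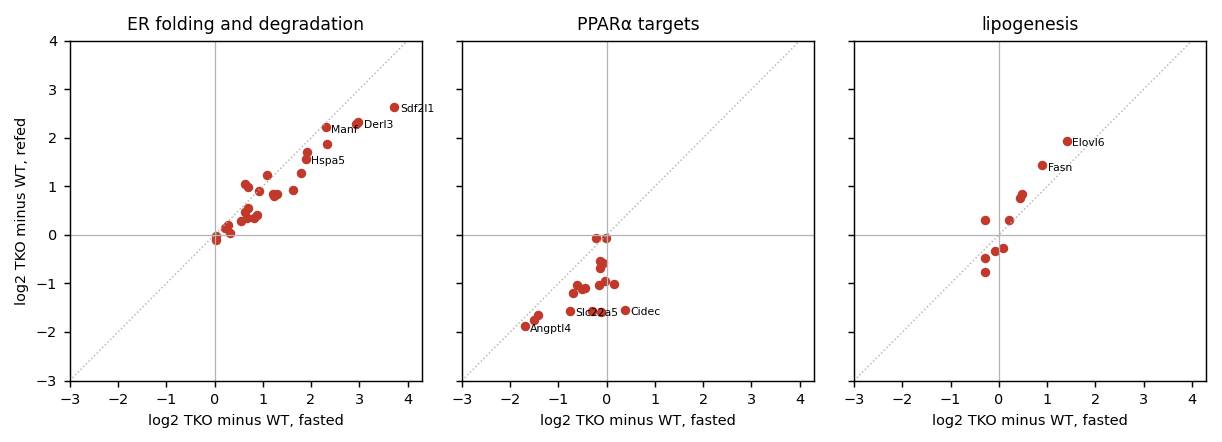
Log2 difference, TKO minus WT, in refed livers (y axis) against fasted livers (x axis) for the genes of 3 lists, 1 point per gene, with the dotted line at equal differences. Of the ER genes 24 of 27 lie below that line, with differences above 0 in both states for most (medians 0.84 refed and 0.92 fasted); of the PPARα targets 18 of 19 lie below it, with more negative differences in refed livers (medians -1.10 refed and -0.23 fasted); and in lipogenesis Elovl6 differed by 1.93 refed and 1.41 fasted.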

How the data were processed

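Liver RNA was measured on 12 arrays of the 1-colour kind, 3 per group. The authors deposited log2 values made with RMA and Partek, per the submitters' processing notes (the sources used here give no versions, platform or filters). RMA corrects background, equalises the distributions of arrays by quantiles and summarises probes into 1 log2 value per feature, so values are relative within this set of arrays. There were 0 missing values; the 6 refed arrays ran from 1.84 to 14.2, and medians were 5.81 to 5.90.

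Features were named from the platform annotation; 0 symbols needed updating, and 14884 gene IDs were found in the RefSeq table (GRCm38.p6). A gene with several features was represented by its brightest. Features with several symbols were not named.

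limma 3.58.1 in R 4.3.3 (lmFit, eBayes, default settings) was fitted to the 3 TKO and 3 WT refed arrays (4 residual degrees of freedom, prior 2.45), with two-sided p-values adjusted by Benjamini-Hochberg over all 23238 features at a threshold of 0.05. The fit to all 12 arrays (8 residual degrees of freedom, prior 2.58), array weights, other scalings, a filter on dim features and leaving out each array were alternatives. The script was tested on simulated data. Members, lists and motifs were chosen with earlier results of these data known. Named by rule were the 3 targeted genes, members of the lists and up to 10 called features per direction without overlap in the fit to the 6 refed arrays; other names were chosen after values were seen. Lists were described by counts and medians beside all features, with no set test. Some members of the lists are not reported here.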

Additional observations from a re-analysis of the deposited data

Results flagged for a closer look

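Asns, asparagine synthetase, was lower in every refed TKO liver than in any refed WT liver, and higher in every fasted TKO liver than in any fasted WT liver. It measured 6.38, 7.40 and 5.63 in refed TKO livers and 9.87, 8.39 and 7.80 in refed WT livers (-2.22), and 7.29, 6.05 and 5.77 in fasted TKO livers and 4.59, 5.17 and 5.66 in fasted WT livers (1.23). The interaction of genotype and feeding, refed difference minus fasted difference, was -3.45 on the log2 scale. It did not pass the threshold over all features (limma, adjusted p = 0.924, unadjusted p = 0.00214). Asns was picked from the listed genes by this opposite order, so its interaction and unadjusted p are not independent of that choice.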

How the results depend on the processing

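The fit to the 6 refed arrays called 4 features (3 higher in TKO, 1 lower). The fit to all 12 arrays called 35 (17 higher, 18 lower) and array weights 73 (35 higher, 38 lower). Leaving out any refed array gave 0 to 0 calls in limma, in total and in each direction, with 1911 to 3761 features at an unadjusted p under 0.05. Cyclic loess and moderation with trend and robust settings called 3 each, a threshold of 0.1 called 5, and median centring, the filter on dim features and a minimum difference of 1 called 4 each. Manf, Stip1 and feature 5443662 kept their call in 5 of 12 alternatives and Rab30 in 6; adjusted p-values ran up to 0.367 (Stip1 0.399) and differences over these ranges (Manf 2.10 to 2.34, Stip1 1.32 to 1.46, feature 5443662 1.62 to 1.71, Rab30 -2.23 to -1.99). Features without overlap numbered 5796 to 7803 with an array left out, because fewer arrays overlap less often. The count of the fit to all 12 arrays ran from 1 (without WT replicate 2) to 691 (without TKO replicate 2, 172 higher and 519 lower); it was 31 without TKO replicate 1, 6 without TKO replicate 3, 20 without WT replicate 1, 5 without WT replicate 3 and 78 after cyclic loess (40 higher, 38 lower). The cause of these shifts was not tested. These counts, and the 12-array alternatives beyond the planned fit, were added after seeing the data. No paired analysis was possible because the labels give no shared replicate numbers; title codes differ between all samples. Signal over background was not given, so what depth limits in dim features is unknown.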

Other observations

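Among features with 1 symbol, at least a 2-fold difference and no overlap, several genes outside the lists had large differences; they were picked by size after their values were seen, and none passed either fit. The most negative was that of Olfr703, an olfactory receptor gene, which measured 3.96, 3.44 and 4.58 in refed TKO livers and 6.78, 6.78 and 7.09 in refed WT livers (-2.89, adjusted p = 0.11 in limma). Olfr701 measured 4.80, 4.54 and 4.54 in TKO livers and 6.75, 7.27 and 6.37 in WT livers (-2.17, adjusted p = 0.118). Both receptor genes and Rab30 are on chromosome 7, as is Bag3, which was higher in every TKO liver (1.15). The receptor genes and Rab30 were named because they fell, so their shared direction follows from that choice. A link with position was not tested.

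Cdkn1a, the cell cycle inhibitor p21 and a known FoxO target, measured 5.69, 6.03 and 6.66 in TKO livers and 9.46, 8.47 and 6.97 in WT livers (-2.17, adjusted p = 0.282), with a wide WT group. Depp1, another known FoxO target, measured 5.06, 6.02 and 5.90 in TKO livers and 7.14, 8.71 and 7.29 in WT livers (-2.05, adjusted p = 0.242). Mt1, a metal-binding metallothionein, measured 10.26, 11.63 and 11.30 in TKO livers and 13.55, 12.92 and 12.56 in WT livers (-1.94, adjusted p = 0.221); the zinc importer Slc39a10 was higher in the same livers. Aacs, which makes acetoacetyl-CoA in the cytosol, measured 9.51, 9.89 and 9.70 in TKO livers and 8.27, 8.08 and 8.55 in WT livers (1.40, adjusted p = 0.137), with both groups tight.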
